A study of Mus musculus with 6 samples.

Results

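The genes described here are 32 that make, sense, move, absorb, expel or store cholesterol, set against all 33017 genes of a table of read counts from mouse small intestine. They were taken by symbol from a list of enzymes, regulators and transporters. That list was drawn up with earlier results of these data known. All 32 were found in the table and all 32 had enough reads to be tested, among 15904 genes that did. The libraries form 2 groups, which the labels call model (3 libraries) and control (3 libraries). The title of the series names simulated microgravity and radiation, and the design text speaks of the effects of a pair of factors, so the comparison asked which transcripts differed between intestine under both factors and control intestine. The sources used here give no strain, sex, age, radiation dose, duration or part of the intestine, and no library is labelled as having received the compound that the title names. Whether each library stands for its own animal is not labelled, and the p-values rest on spread among libraries that could be technical.

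Cells of the intestinal lining obtain cholesterol from the diet and bile and also make it from acetyl-CoA. Synthesis is governed by SREBP-2, the protein of Srebf2, a transcription factor held in the endoplasmic reticulum while sterols are plentiful and released to activate the synthesis genes when sterols run low. Absorbed cholesterol enters through NPC1L1 at the brush border, and the ABCG5 and ABCG8 proteins, which work as a pair, pump sterols back into the lumen. Cholesterol that is kept can be esterified by SOAT enzymes for packing into chylomicrons, or handed to lipoproteins through ABCA1.

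Levels are CPM, the share of a library's counts, scaled between libraries by the TMM method, and means are given ± SD with n = 3 libraries per group. Fold changes are log2 ratios of model over control from edgeR, with a standard error (SE). Library totals ran between 35007515 and 43664883 counts in model libraries and between 36158165 and 45285564 counts in control libraries. Single members had between 10 counts (Fdps in model 1) and 45806 counts (Npc1l1 in control 1) in a library.

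Control 3 stood apart from the other 5 libraries in transcripts that mark position along the intestine. Fabp6, the bile acid binding protein of the ileum, was at 1162 CPM in control 3 and at most 0.284 CPM in the other libraries, and Slc10a2, the ileal bile acid transporter, was at 646 CPM in control 3 and at most 4.60 CPM elsewhere. Of the genes of the proximal intestine, Gata4 was at 233, 255 and 245 CPM in the model libraries and at 214, 234 and 1.89 CPM in control 1, 2 and 3, and the lactase gene Lct was at 1542, 609 and 1412 CPM in the model libraries and at 2254, 1084 and 0.995 CPM in control 1, 2 and 3. The summed level of 5 proximal genes was 1916 to 2893 CPM in model libraries. It was 2733 and 2970 CPM in control 2 and control 1, and 236 CPM in control 3. In control 3 the proximal sum was mostly Slc40a1, at 223 CPM. Slc40a1 was at 687, 646 and 271 CPM in model 1, 2 and 3 and at 169 and 992 CPM in control 1 and 2. The summed level of 5 ileal genes was 1287 to 2052 CPM in model libraries. It was 1012 and 1251 CPM in control 1 and control 2, and 3652 CPM in control 3. Outside control 3 that sum was mostly Clec2h, which did not set control 3 apart. Clec2h was at 1814, 1174 and 1588 CPM in model 1, 2 and 3 and at 913, 1095 and 1445 CPM in control 1, 2 and 3. Results are given with all libraries and, where stated, without control 3. Summed B cell markers were at 13.1, 19.5 and 196 CPM in model 1, 2 and 3 and at 45.3, 14.2 and 321 CPM in control 1, 2 and 3, summed smooth muscle markers (led by Myh11 and Acta2) at 877 to 1166 CPM in model and 1165 to 1984 CPM in control libraries, T cell markers (led by Cd8a and Lck) at 124, 132 and 110 CPM in model 1, 2 and 3 and 88.2, 96.9 and 74.1 CPM in control 1, 2 and 3, without overlap, adipocyte markers at 58.1 CPM in control 3 and 5.72 to 16.2 CPM elsewhere, and pancreatic acinar markers (led by Ctrb1 and Pnlip) at 5135 CPM in model 3, with no other library above 10.6 CPM. Of the markers of the labelled tissue, 8 enterocyte genes, led by Alpi and Anpep, summed to 12172 to 16787 CPM in model and 12092 to 12981 CPM in control libraries, and Fabp2 was listed at 0 in all 6. In control 3 that sum was mostly Anpep, at 8545 CPM against 1972 to 3460 CPM elsewhere, while Alpi was at 275 CPM against 2980 to 7414 CPM elsewhere and Fabp1 at 0.923 CPM against 822 to 1519 CPM elsewhere. The part of these markers in the results was not tested. In whole tissue, fewer cells of a type and less RNA per cell cannot be told apart.

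Most synthesis genes had lower values in model intestine and the sterol exporters Abcg5 and Abcg8 had higher values, but no cholesterol gene passed the test. With edgeR's quasi-likelihood test and Benjamini-Hochberg adjustment over all 15904 genes, 0 genes were called in all (0%), and the smallest adjusted p of a cholesterol gene was 0.851. DESeq2 called 25 genes (0.157%), of which 0 were cholesterol genes. At an unadjusted p under 0.05 by edgeR, 765 genes were found in all, 2.99% of tested genes on the lower side and 1.82% on the higher side. Among the 32 cholesterol genes, 8 were on the lower side at that level, all of them synthesis enzymes, and 2 on the higher side, Abcg5 and Abcg8. The fold change was below 0 for 25 of the 32, against 51.8% of all tested genes, and below -1 for 5 of them, against 5.87% of all. Without control 3, 0 of the 32 were below -1, against 3.19% of all. The median was -0.50, against -0.02 over all tested genes. In 9 of the 32 every model library lay below every control library, which held for 6.33% of all tested genes. Every model library lay above every control library for 2 of the 32, against 4.73% of all. Without control 3 the median over the 32 genes was -0.20, with 23 below 0 (against 46.9% of all tested genes) 10 with non-overlapping lower values (8.26% of all) and 2 with non-overlapping higher values (8.14% of all). At an unadjusted p under 0.05, 3 were then lower (Hmgcs1, Fdft1 and Insig1; 0.904% of all) and 3 higher (Abca1, Abcg5 and Abcg8; 1.43% of all). Leaving a library out of groups that do not overlap cannot make them overlap except through the rescaling, which did so for Srebf2 without control 3, so these counts do not show independence from a library. The number with non-overlapping lower values was 14 without model 2 (12.2% of all tested genes) and 13 without control 2 (14.2% of all).

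**Figure D1:**
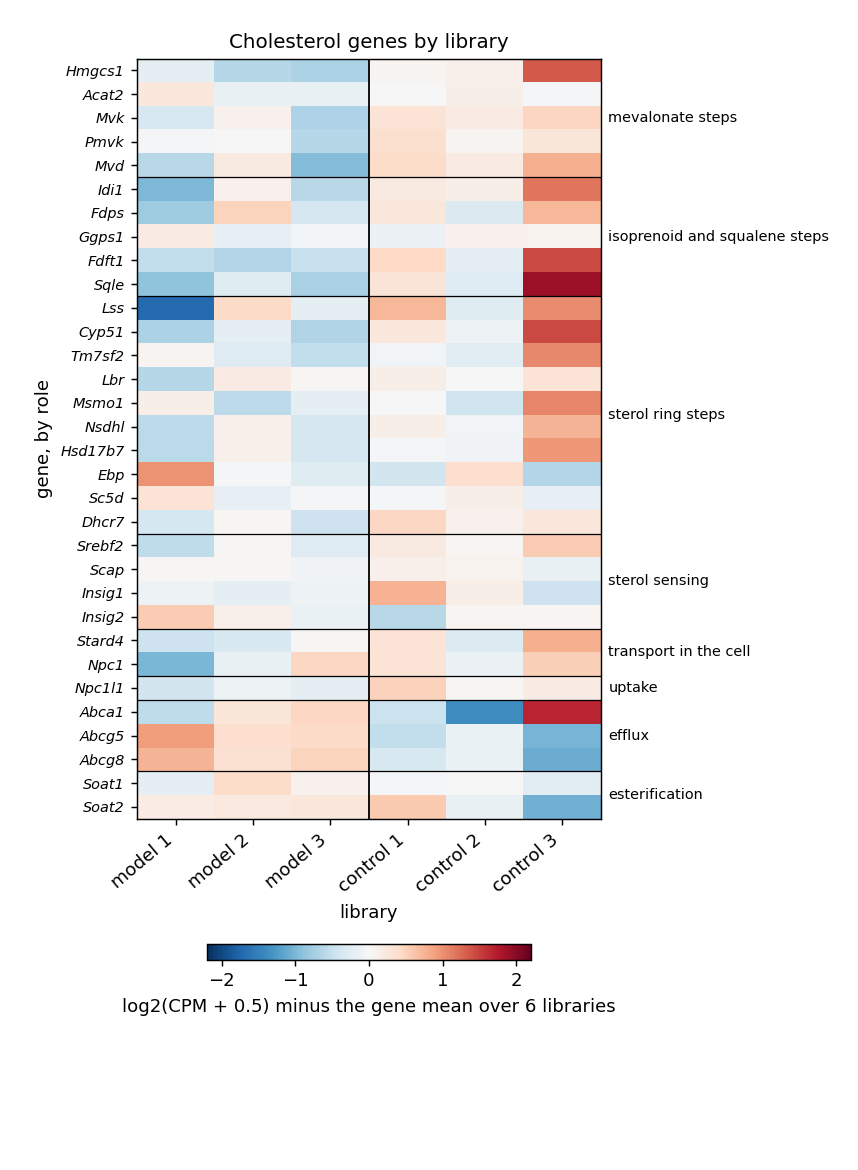
Level of each cholesterol gene in each library, as log2(CPM + 0.5) minus the gene's mean over 6 libraries; rows are genes ordered by role, columns are libraries, with the model libraries left of the line. Control 3 holds the highest level of 14 of the 20 synthesis enzymes and the lowest levels of Abcg5 and Abcg8.

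The early steps, from acetyl-CoA to the activated isoprene unit, are carried out by 5 enzymes of the list, and all 5 had a fold change below 0, with a median of -0.61, or -0.51 without control 3. Hmgcs1, the synthase that makes HMG-CoA, had 76.4, 56.2 and 53.5 CPM in model 1, 2 and 3, against 91.2, 94.3 and 222 CPM in control 1, 2 and 3. The groups did not overlap, and control 3 was far above the other control libraries. Its log2 fold change was -1.13 (SE 0.38, unadjusted p = 0.0194 by edgeR) and it was -0.56 (SE 0.23) without control 3. The stretch upstream of its start is shown for its sterol regulatory element, which SREBP proteins bind. Among promoter windows at hand for 26 of the 32 genes, its window was the only one with the element. The element was searched as the letters TCACNCCAC on either strand. The sequence is that of RefSeq for build GRCm38.p6, chr13:119690101-119690350, plus strand, 250 bases that end just before the start of Hmgcs1. Capitals mark the element at bases 114 to 122 and 3 CCAAT boxes, the letters recognised by NF-Y, read here on the opposite strand as ATTGG.

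Hmgcs1 upstream: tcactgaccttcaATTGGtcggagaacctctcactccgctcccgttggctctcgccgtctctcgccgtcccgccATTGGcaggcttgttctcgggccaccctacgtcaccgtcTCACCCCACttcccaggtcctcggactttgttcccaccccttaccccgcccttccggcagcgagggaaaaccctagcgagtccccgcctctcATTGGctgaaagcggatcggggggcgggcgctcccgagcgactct

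Mvk, mevalonate kinase, had 13.3, 18.3 and 10.5 CPM in model libraries, against 21.1, 19.4 and 23.8 CPM in control libraries. All 3 model libraries were below all 3 control libraries, with a log2 fold change of -0.61 (SE 0.25), and it stayed near that size without control 3, at -0.51 (SE 0.29). Its divergent neighbour Mmab, an enzyme of cobalamin metabolism that shares the stretch between the starts of both genes, had 8.31, 13.6 and 9.23 CPM in model libraries, against 19.4, 15.2 and 16.4 CPM in control libraries. Mmab is not among the 32 genes but was listed beside them as another SREBP target, and its groups did not overlap either, with a log2 fold change of -0.71 (SE 0.26), and of -0.72 (SE 0.30) without control 3. The stretch between the starts of the pair (RefSeq, GRCm38.p6, chr5:114444028-114444268, plus strand, 241 bases) is shown because both genes were lower in every model library. It was picked after the values were seen. Capitals mark 5 CCAAT boxes, 4 of them on the opposite strand.

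Mmab to Mvk: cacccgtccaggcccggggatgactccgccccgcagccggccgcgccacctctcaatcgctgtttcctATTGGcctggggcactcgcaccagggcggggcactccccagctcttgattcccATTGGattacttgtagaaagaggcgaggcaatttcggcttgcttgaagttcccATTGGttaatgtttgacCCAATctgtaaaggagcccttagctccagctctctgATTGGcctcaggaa

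Pmvk, the next kinase, had 23.2, 23.6 and 15.3 CPM in model libraries, against 30.6, 25.01 and 28.7 CPM in control libraries, again without overlap (log2 fold change -0.44, SE 0.23, and -0.26 without model 3). Mvd, the decarboxylase that closes this stage, had 14.1, 24.9 and 10.998 CPM in model libraries, against 28.8, 24.6 and 37.9 CPM in control libraries. Here model 2 lay just above control 2, so the groups overlapped, with a log2 fold change of -0.87 (SE 0.34). Acat2, the thiolase that joins the first acetyl units, was nearly level, at 37.7 ± 6.47 CPM in model and 39.0 ± 2.35 CPM in control libraries.

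The next 5 enzymes handle isoprene units and squalene. Among them Ggps1 is a side branch and Sqle acts on squalene itself. The median of these 5 was -1.04, or -0.59 without control 3. Idi1, the isomerase of the isoprene unit, had 10.04, 21.7 and 13.1 CPM in model libraries, against 23.5, 22.3 and 46.9 CPM in control libraries. The groups did not overlap, though model 2 lay within 1 CPM of control 2, and the log2 fold change of -1.04 (SE 0.40) became -0.59 (SE 0.35) without control 3. Fdft1, squalene synthase, the first step committed to sterols, had 28.9, 26.9 and 30.0 CPM in model libraries, against 57.2, 36.6 and 116 CPM in control libraries. The model libraries were close together and all below the lowest control library. Fdft1 had the smallest edgeR p among the synthesis enzymes, with a log2 fold change of -1.29 (SE 0.40, unadjusted p = 0.0134 by edgeR), and -0.70 (SE 0.25, unadjusted p = 0.0247) without control 3. Sqle, squalene epoxidase, had 26.3, 40.5 and 29.7 CPM in model libraries, against 59.5, 39.98 and 182 CPM in control libraries. Its log2 fold change was the largest of the list in size, -1.54 (SE 0.55), but model 2 lay above control 2 and the value was -0.61 (SE 0.28) without control 3. Ggps1, which makes the geranylgeranyl unit used to anchor proteins and is not a step towards cholesterol, had 29.4 ± 3.87 CPM in model and 30.0 ± 2.64 CPM in control libraries, and the sign of its fold change of -0.03 turned under other scalings. Fdps, farnesyl diphosphate synthase, was at 0.838 ± 0.625 CPM in model and 1.27 ± 0.617 CPM in control libraries. That level is uncertain, because 77.4% of its exon bases are also exons of a same-strand gene (Gm43738) in the GENCODE M21 annotation. Fdft1 shares 20.9% of its exon bases with Ctsb on the opposite strand and Hmgcs1 557 of 3482 exon bases with Gm48342, and how strand was treated in the counting is not stated in the labels.

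The 10 enzymes that close and trim the sterol ring had a median of -0.56, with 8 below 0. Without control 3 the median was -0.16, with 7 below 0. Cyp51, the demethylase of lanosterol, had 47.1, 65.9 and 48.1 CPM in model libraries, against 90.4, 70.7 and 211 CPM in control libraries. The groups did not overlap, and the log2 fold change was -1.21 (SE 0.42), or -0.57 (SE 0.24) without control 3. Dhcr7, the reductase that yields cholesterol, had 37.1, 50.4 and 35.5 CPM in model libraries, against 66.7, 51.9 and 58.3 CPM in control libraries. All 3 model libraries were below the control libraries, control 3 was not the highest, and the log2 fold change of -0.52 (SE 0.21) was the same to 2 decimals without control 3. For the other ring enzymes the groups overlapped. Lss, lanosterol synthase, was at 6.51 ± 4.33 CPM in model and 12.2 ± 5.23 CPM in control libraries (log2 fold change -0.91, SE 0.59), with 60 counts in model 1, its lowest library. Its value was -0.60 without control 3, -0.49 without model 1 and -1.47 without model 2. Nsdhl, which takes part in removing methyl groups, had a log2 fold change of -0.57 (SE 0.29), or -0.27 without control 3, and Hsd17b7, the ketoreductase of the same stage, one of -0.63 (SE 0.35), or -0.18 without control 3. The sterol reductase Tm7sf2 had a value of -0.62 (SE 0.38), or -0.08 without control 3. For Msmo1, the methylsterol monooxygenase, -0.54 (SE 0.41) turned sign to 0.05 without control 3. Lbr, which is a sterol reductase and also a protein of the nuclear envelope, had 70.9 ± 19.2 CPM in model and 84.2 ± 9.21 CPM in control libraries. The exceptions in direction were Ebp, the sterol isomerase, at 164, 80.1 and 67.9 CPM in model libraries and 62.0, 106 and 52.5 CPM in control libraries (log2 fold change 0.50, SE 0.40, and 0.01 without model 1), and the desaturase Sc5d, at 138 ± 24.6 CPM in model and 132 ± 13.9 CPM in control libraries, whose fold change of 0.07 was below 0 with upper-quartile scaling or scaling by library size alone.

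Summed over the 20 synthesis enzymes, with Ggps1 counted among them, the level was 860, 802 and 701 CPM in model libraries, against 961, 907 and 1550 CPM in control libraries. The 3 model sums were below the 3 control sums, by a small margin for control 2 and a wide one for control 3. The median log2 fold change of the 20 enzymes was -0.60, with 18 below 0 (51.8% of all tested genes). Non-overlapping lower values were found for 7 of them (6.33% of all). Without control 3 the median was -0.34 and 16 were below 0 (46.9% of all). The number with non-overlapping lower values was again 7, while the share of all genes was 8.26%. The median deviation of the enzymes from their own mean was -0.46, -0.03 and -0.41 (log2) in model 1, 2 and 3 and 0.17, 0.03 and 0.77 in control 1, 2 and 3, so model 2 and control 2 were nearly alike. Proliferation markers, which also mark crypt cells, summed to 325, 604 and 461 CPM in model 1, 2 and 3 and to 604, 542 and 605 CPM in control 1, 2 and 3, and their part in the enzyme levels was not tested.

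**Figure D2:**
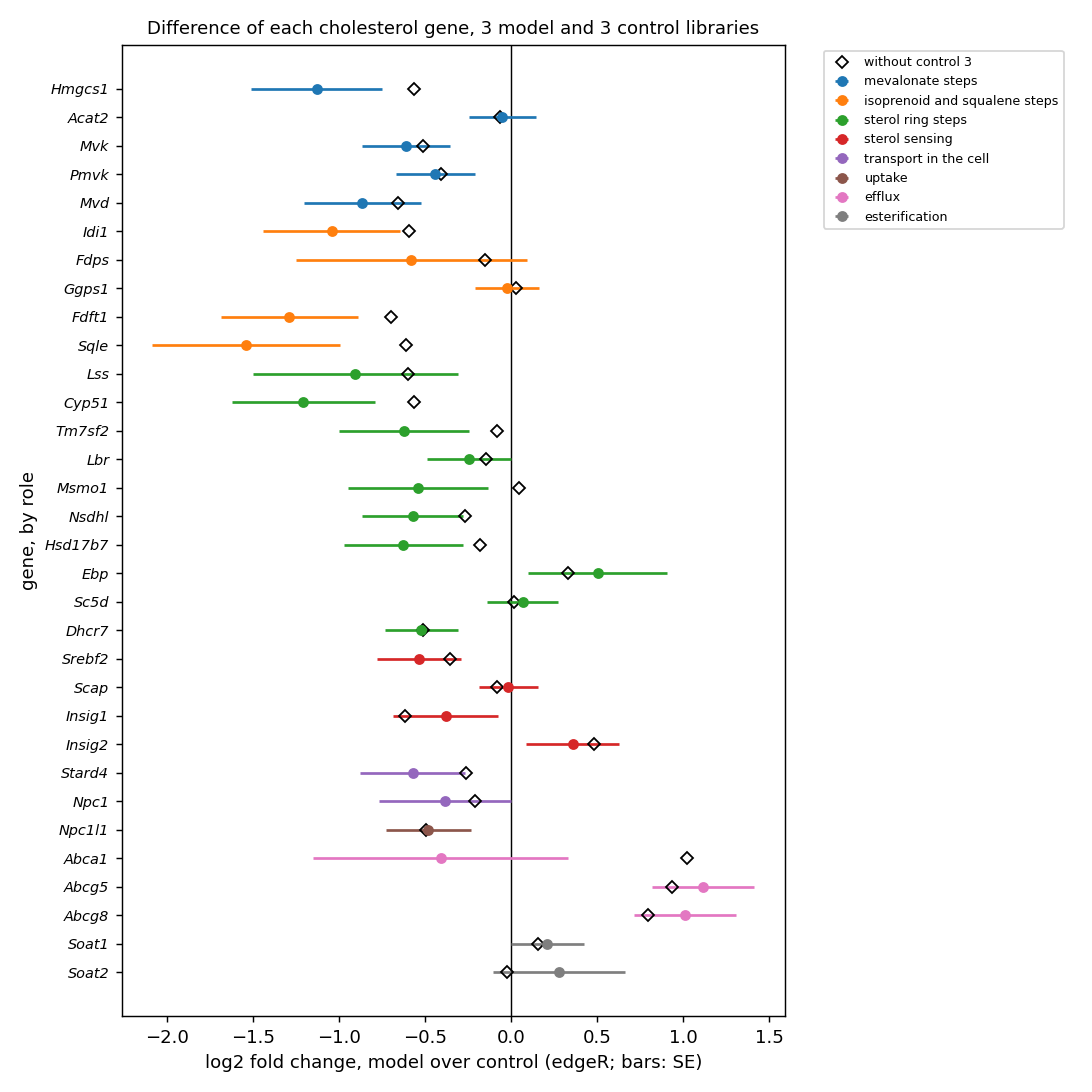
Log2 fold change of model over control for each cholesterol gene, with bars of 1 SE (3 model and 3 control libraries); open diamonds give the value without control 3. Most synthesis enzymes sit left of 0 and move towards it without control 3, while Abcg5 and Abcg8 stay at 0.80 or above.

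Among the 4 sterol-sensing genes, the gene of the regulator itself was lower in every model library. Srebf2 had 144, 215 and 172 CPM in model libraries, against 241, 218 and 312 CPM in control libraries. The groups did not overlap, but model 2 and control 2 were within 3 CPM of each other, and the log2 fold change was -0.54 (SE 0.25), or -0.36 (SE 0.25) with overlap when control 3 was left out. Scap, the escort that carries SREBP proteins to the Golgi, had 60.2, 60.7 and 56.4 CPM in model libraries, against 63.8, 62.9 and 52.7 CPM in control libraries. It was the most even of the 32 genes in fold change, at -0.02 (SE 0.17), with a sign that turned with the scaling. Insig1, which retains the SCAP complex in the endoplasmic reticulum and is itself induced by SREBP proteins, had 86.8, 80.6 and 86.9 CPM in model libraries, against 160, 103 and 68.3 CPM in control libraries. Like Ebp and unlike the other synthesis enzymes, Insig1 was lowest in control 3, so the groups overlapped with all libraries (log2 fold change -0.38, SE 0.30). The groups separated without control 3 (-0.62, SE 0.24, unadjusted p = 0.0387 by edgeR). Without control 1, its highest library, the log2 fold change was -0.01 (unadjusted p = 0.970 by edgeR). Insig2, the second retention protein, had 119, 86.7 and 72.5 CPM in model libraries, against 52.5, 82.3 and 82.5 CPM in control libraries, with overlap and a log2 fold change of 0.36 (SE 0.27), or 0.14 without model 1.

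Of the carriers inside the cell, Stard4, a soluble sterol transfer protein, had 117, 127 and 163 CPM in model libraries, against 199, 130 and 276 CPM in control libraries (log2 fold change -0.57, SE 0.31, and -0.26 without control 3). Npc1, which lets cholesterol leave the lysosome, had 10.2, 18.6 and 28.9 CPM in model libraries, against 25.9, 19.1 and 30.4 CPM in control libraries. Both genes overlapped between groups, and model 1 was the lowest library for each. The log2 fold change of Npc1 was -0.38 (SE 0.38), with -0.08 without model 1 and -0.80 without model 3.

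At the brush border, the importer had lower values and both exporters higher values in every model library than in any control library, but none of the 3 genes passed the test. Npc1l1, the receptor for cholesterol absorption, had 511, 626 and 585 CPM in model libraries, against 955, 685 and 767 CPM in control libraries. All model libraries were below all control libraries, and the log2 fold change was -0.48 (SE 0.25), with -0.50 (SE 0.26) without control 3. Abcg5 had 532, 364 and 376 CPM in model libraries, against 193, 256 and 139 CPM in control libraries. Abcg8, its partner, had 479, 363 and 404 CPM in model libraries, against 224, 260 and 135 CPM in control libraries. For both exporters the lowest model library was above the highest control library, and control 3 was the lowest library. Abcg5 had a log2 fold change of 1.11 (SE 0.30, unadjusted p = 0.00666 by edgeR) and Abcg8 one of 1.01 (SE 0.29, unadjusted p = 0.0101), ranks 52 and 101 by p among the tested genes, with an adjusted p = 0.851 each. Without control 3 they were 0.94 (SE 0.29) and 0.80 (SE 0.24), and over the fits that left out 1 library they ran from 0.92 to 1.37 for Abcg5 and from 0.80 to 1.23 for Abcg8. DESeq2 gave adjusted p = 0.134 for Abcg5 and 0.211 for Abcg8, and without control 2 it called Abcg5, Fdft1 and Sqle among 102 genes.

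**Figure D3:**
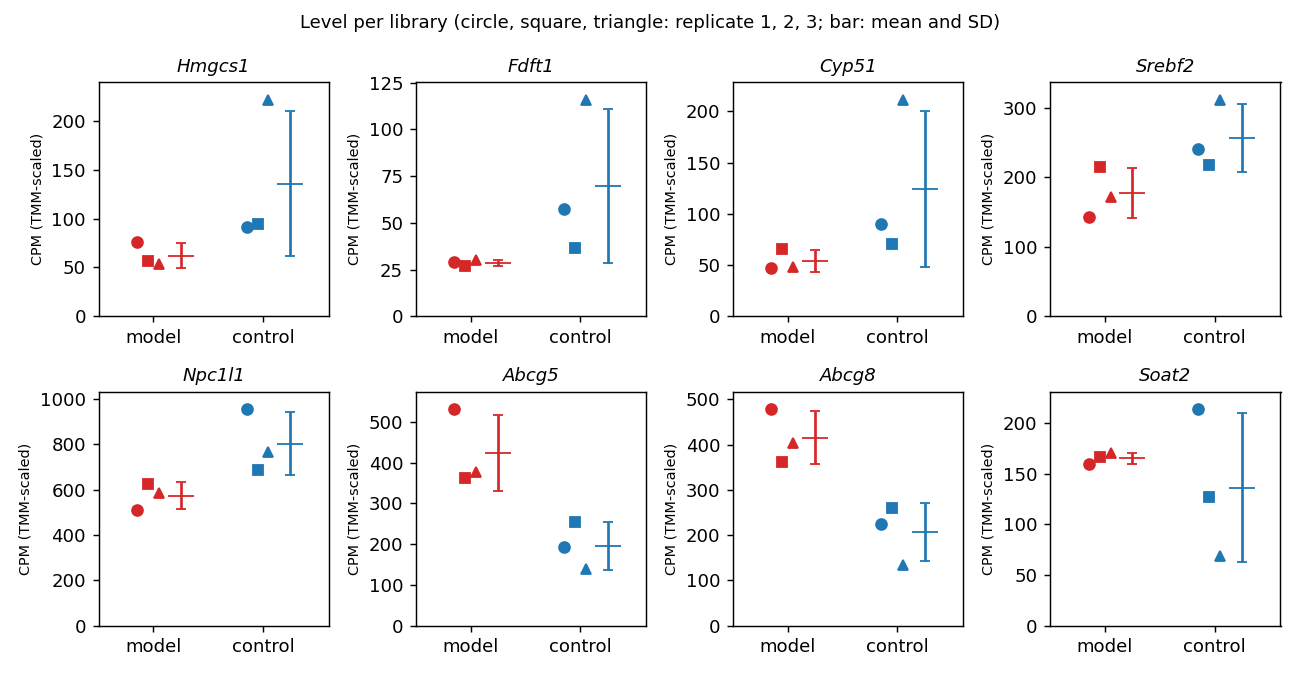
CPM in each library for 8 cholesterol genes, with model libraries left of control libraries; symbols give the replicate and the bar its group's mean and SD (n = 3). Model levels of Abcg5 and Abcg8 are all above control levels, those of Npc1l1, Srebf2, Cyp51, Fdft1 and Hmgcs1 are all below, and Soat2 overlaps.

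Because a ratio inside a library needs no scaling between libraries, the exporters were also set against the importer per kilobase of exon, a step chosen after the values were seen. The ratio of Abcg5 to Npc1l1 was 1.92, 1.07 and 1.19 in model libraries, against 0.373, 0.689 and 0.334 in control libraries. That of Abcg8 to Npc1l1 was 1.12, 0.691 and 0.824 in model libraries, against 0.28, 0.452 and 0.209 in control libraries. Neither ratio could overlap between groups, since the exporters were higher and the importer lower in every model library, so the ratios restate that order and add only its size. Per kilobase Abcg5 was above Npc1l1 in every model library, by little in model 2, and below it in every control library. That order rests on the exon lengths. In CPM, not divided by length, Abcg5 was below Npc1l1 in model 2 (364 against 626) and model 3 (376 against 585). The ratio of Abcg5 to Abcg8 stayed in a narrow band, at 1.57 ± 0.141 in model and 1.48 ± 0.137 in control libraries. The pair lies head to head, and 109 bases lie between the Abcg5 start and the nearer of 2 Abcg8 starts in RefSeq (GRCm38.p6, chr17:84683012-84683120, plus strand, with Abcg5 to the left on the minus strand). The stretch between them is shown because the pair was higher together. Capitals mark 2 copies of AGATAA, the core bound by GATA factors, on the opposite strand at bases 17 to 22 and 47 to 52. This motif was searched after the sequence was seen and is in the windows of 12.7% of all genes and of 4 of 26 cholesterol genes. These 4 include Abcg5 and Abcg8 themselves, whose windows share the copies shown here. Exons of the pair overlap by 40 bases on opposite strands.

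Abcg5 to Abcg8: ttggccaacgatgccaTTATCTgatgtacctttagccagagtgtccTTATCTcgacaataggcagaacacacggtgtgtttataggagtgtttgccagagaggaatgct

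Abca1, which loads cholesterol onto lipoproteins at the basal side, had 15.2, 27.2 and 31.3 CPM in model libraries, against 16.1, 8.36 and 73.6 CPM in control libraries. Its direction depended on control 3 and on the tool, with a log2 fold change of -0.41 (SE 0.74) by edgeR and 0.14 by limma-voom with all libraries and 1.02 (SE 0.41, unadjusted p = 0.0421 by edgeR) without control 3, where model 1 still lay below control 1. Of the esterifying enzymes, Soat2, the intestinal form, had 159, 166 and 170 CPM in model libraries, against 214, 127 and 68.5 CPM in control libraries. The model libraries sat in the middle of the wide control range, with a log2 fold change of 0.28 (SE 0.38) that was -0.03 without control 3 and 0.77 without control 1. Soat1, the widely expressed form, had 36.7, 55.7 and 45.05 CPM in model libraries, against 41.1, 42.1 and 35.6 CPM in control libraries (log2 fold change 0.21, SE 0.21, and 0.05 without model 2). The median over these 6 uptake, export and esterification genes was 0.24, with 0.48 without control 3 and 0.51 without control 1.

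Per kilobase of exon, Abcg5, Npc1l1, Abcg8 and Soat2 had the highest mean levels of the 32 genes in each group. In model libraries the mean level was 175 CPM per kilobase for Abcg5, 128 for Npc1l1, 111 for Abcg8 and 74.9 for Soat2. In control libraries it was 80.9 for Abcg5, 180 for Npc1l1, 55.0 for Abcg8 and 61.8 for Soat2. The synthesis enzyme with the highest level per kilobase was Ebp, at 59.6 in model and 42.1 in control libraries. Lss, at 1.39 in model and 2.62 in control libraries, and Fdps were lowest.

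RefSeq promoter windows of 300 bases (250 before and 50 after a start, build GRCm38.p6) were at hand for 26 of the 32 genes. Fdps, Fdft1, Sqle, Stard4, Npc1 and Soat2 had no window and were not searched. A CCAAT box on either strand was in the windows of 23 of the 26 genes, 88.5%, against 41.1% of all 27025 genes in the promoter table. Those 27025 were not limited to genes tested here, while all of the 26 were tested, so the sets compared are unlike. The 3 without it were Abca1, Acat2 and Scap, and Mvk, with 5, had the most. The E box CACGTG, which is its own reverse complement, was in the windows of 6 of 26 genes, 23.1%, against 8.09% of all. The sterol regulatory element was found for Hmgcs1 alone, 3.85% of the 26, against 1.44% of all. Some genes have several windows, and these are matches of letters, not binding sites.

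Of 42 other genes of sterol handling listed beside the 32, 41 were tested and 30 had a fold change above 0, against 48.2% of all tested genes, with a median of 0.17. At an unadjusted p under 0.05 by edgeR there were 3 higher, Erlin1, Cyp27a1 and Gramd1b, and 1 lower, Mmab. Over all tested genes 1.82% were higher and 2.99% lower at that level. Cyp27a1, the mitochondrial enzyme that makes an oxysterol from cholesterol, had 188, 52.8 and 165 CPM in model libraries, against 45.4, 48.1 and 27.8 CPM in control libraries. All model libraries were higher, model 2 only slightly, and the log2 fold change was 1.74 (SE 0.47), or 1.55 (SE 0.52) without control 3. Gramd1b, a carrier of cholesterol from the cell membrane to the endoplasmic reticulum, had 137, 117 and 257 CPM in model libraries, against 93.9, 72.9 and 68.2 CPM in control libraries (log2 fold change 1.12, SE 0.33). Erlin1, an endoplasmic reticulum protein that restrains SREBP activation, had 94.6, 72.9 and 81.7 CPM in model libraries, against 43.7, 49.2 and 71.4 CPM in control libraries (log2 fold change 0.60, SE 0.24, and 0.86 without control 3). None of the 3 passed the test, each with an adjusted p = 0.851 by edgeR's quasi-likelihood test.

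Abundant genes of each further group gave the following levels. Over all tested genes, 51.8% had a fold change below 0 and 48.2% above 0, with a median of -0.02. In SREBP processing, Erlin2 had 180 ± 18.5 CPM in model and 158 ± 16.2 CPM in control libraries. Of 5 other SREBP targets 4 were below 0, but their median was only -0.05. Acly, which supplies acetyl-CoA, had 78.2 ± 17.3 CPM in model and 110 ± 40.6 CPM in control libraries, and Rdh11 51.9 ± 3.98 CPM in model and 45.2 ± 11.4 CPM in control libraries. Acly and Rdh11 had log2 fold changes of -0.50 and 0.20, or -0.17 and 0.03 without control 3. Among 7 oxysterol receptor genes and targets, 4 were above and 3 below 0, with Lpcat3, a phospholipid remodelling enzyme, at 281 ± 31.95 CPM in model and 241 ± 44.5 CPM in control libraries and Smpdl3a at 221 ± 88.7 CPM in model and 174 ± 80.1 CPM in control libraries. Sterol transfer genes had 7 of 8 members above 0, led by Gramd1b and by Osbp, at 166 ± 7.86 CPM in model and 139 ± 12.5 CPM in control libraries, without overlap. Of 3 oxysterol-making genes Cyp27a1 was the most abundant, and Cyp7b1 was at 3.68 ± 0.708 CPM in model and 3.58 ± 1.13 CPM in control libraries. Lipa, the lysosomal acid lipase, had 239 ± 44.7 CPM in model and 124 ± 74.1 CPM in control libraries, with overlap, and the lipoprotein receptor Scarb1 111 ± 55.6 CPM in model and 63.0 ± 57.1 CPM in control libraries. Lipa and Scarb1 had log2 fold changes of 0.95 and 0.81, or 0.56 and 0.37 without control 3. The branches that use isoprenoids for other ends had 7 of 8 members above 0 and a median of 0.13, with Nus1 at 164 ± 15.4 CPM in model and 150 ± 21.9 CPM in control libraries and Coq2 at 89.8 ± 16.3 CPM in model and 84.0 ± 27.7 CPM in control libraries. Nus1 and Coq2 had log2 fold changes of 0.13 and 0.10, or 0.17 and -0.13 without control 3.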

How the data were processed

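Mouse small intestine, frozen in liquid nitrogen, gave 6 poly-A RNA-seq libraries (3 model and 3 control), per the labels' protocols. FastQC, Trimmomatic, STAR and featureCounts against GRCm39 are named in the submitters' processing notes, without versions or settings. The authors deposited raw read counts per gene and library; each column was matched to a sample by its library name, and 0 columns were left over. Genes passing filterByExpr were tested on the whole table with edgeR's quasi-likelihood F test (robust, TMM scaling, group as the only term) and Benjamini-Hochberg adjustment at 0.05 (R 4.3.3, edgeR 4.0.16, limma 3.58.1, DESeq2 1.42.0). Each SE was obtained from the fold change and its F statistic. The test was also run on simulated counts, which had less spread between libraries than these data. That run therefore does not measure what the test can detect here. No library was a duplicate, as every pair in a group gave a chi-square per degree of freedom of 115 or more.

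Members, lists and tests were chosen with earlier results of these data known. Named are all members, the 2 most abundant genes of each list and every listed gene with an unadjusted p under 0.05. Some genes of the pathway and of these lists are not reported here. Exon lengths and overlaps are from GENCODE M21 and promoters from RefSeq, both of another build (GRCm38) than the counts. Alternatives were other scalings, filters and tools, a replicate block and left-out libraries. Deviations use a pseudocount of 0.5 CPM.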

Additional observations from a re-analysis of the deposited data

How the results depend on the processing

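No alternative made edgeR or limma-voom call a gene, and DESeq2 called 25, or 20 to 102 with 1 library left out (102 without control 2, 87 without model 2, 47 without control 1), among them 3 cholesterol genes (Fdft1, Sqle and Abcg5) without control 2. Of 543 values of single cholesterol genes under the other alternatives, with DESeq2 on all libraries only, 508 kept direction and side of the threshold, 0 crossed it and 35 turned sign. Leaving out 1 library at a time, the median log2 fold change ran from -0.61 to -0.20 over the 32 genes. It ran from -0.82 to -0.34 over the enzymes and from 0.16 to 0.51 over uptake, export and esterification genes. The number of genes with non-overlapping lower values ran from 9 (without control 1, 12.9% of all tested genes) to 14 (without model 2, 12.2% of all). Genes below 0 numbered from 22 (without control 2, 51.7% of all) to 26 (without model 1, 52.5% of all). Without control 3 and model 1 the median was -0.19 over the 32 genes and -0.26 over the enzymes. In that setting 14 genes had non-overlapping lower values, beside 17.7% of all tested genes. Without control 3 and model 3, chosen after seeing the data, the medians were -0.23 and -0.24. Scaling by library size alone moved the median of all genes to -0.21, and that of the enzymes was -0.81.

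Signs turned for Ggps1 (0.011) and Scap (0.017) with RLE scaling, for Ggps1 (0.0107) and Scap (0.0170) with DESeq2, for Sc5d with upper-quartile (-0.0081) and library-size scaling (-0.14), and for Abca1 with limma-voom (0.14) and the replicate block (0.11). With 1 library left out, values ran from -0.084 to 0.039 for Scap, -0.20 to 0.026 for Acat2, -0.14 to 0.058 for Ggps1, -0.81 to 0.045 for Msmo1, -0.85 to 1.02 for Abca1, -0.027 to 0.77 for Soat2 and -0.086 to 0.17 for Sc5d. Without control 3 and model 3, Fdps was at 0.0030, Ggps1 at 0.030, Tm7sf2 at 0.036, Msmo1 at 0.030, Abca1 at 0.79 and Soat2 at -0.068. Without control 3 and model 1, Fdps was at 0.19, Lbr at 0.040, Ebp at -0.19, Sc5d at -0.16, Npc1 at 0.076, Abca1 at 1.25 and Soat2 at -0.020. The cause was not tested. Samples share only a replicate number: deviations of same-numbered libraries correlated at -0.084, -0.30 and 0.33, and with the replicate block the median over the 32 genes was -0.47, with 0 genes called. The residual spread, a biological coefficient of variation of 40.7%, limits what 3 libraries a group can show; no fit at reduced depth was run.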

Other observations

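Values of a pair of related genes inside a library, chosen after the data were seen and needing no scaling between libraries, add to the account of sensing and storage. The ratio of Insig2 to Insig1 per kilobase of exon was 1.25, 0.983 and 0.762 in model 1, 2 and 3, and 0.30, 0.728 and 1.10 in control 1, 2 and 3. It was lower in control 1 and control 2 than in any model library, and control 3 lay between model 1 and model 2. The ratio of Soat2 to Soat1 was 14.1 ± 2.61 in model and 12.8 ± 6.34 in control libraries (SD, n = 3 each), with control 3 lowest at 7.29 and control 1 highest at 19.7. Abcg5, Abcg8, Soat2, Soat1, Scap, Insig1 and Ebp had their lowest level in control 3, the library with 1162 CPM of Fabp6, while 18 of the 32 genes had their highest level there.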
